A study of Drosophila melanogaster with 6 samples.

Results

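The genes described here encode the conjugation machinery of autophagy in Drosophila melanogaster. They are the 10 genes Atg3, Atg4a, Atg4b, Atg5, Atg7, Atg8a, Atg8b, Atg10, Atg12 and Atg16, taken by current FlyBase symbol from a deposited table of 17483 genes. Their levels are given as FPKM, fragments scaled to the length of the gene and the size of the library. Brains were dissected from w1118, a laboratory strain with white eyes, at 15 days of age, and their messenger RNA was sequenced. In 3 libraries the flies had eaten normal food, and in 3 they had eaten food supplemented with spermidine, a polyamine best known in this field as an inducer of autophagy. The labels used here state no dose, sex or number of brains per library.

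Autophagy encloses cytoplasm in a membrane that closes into an autophagosome and is delivered to the lysosome. The ubiquitin-like protein Atg8 is trimmed by the protease Atg4, activated by the E1-like enzyme Atg7, passed to the E2-like enzyme Atg3 and joined to a membrane lipid. A second ubiquitin-like protein, Atg12, is activated by the same Atg7, passed to the E2-like Atg10 and joined to Atg5, and the product assembles with Atg16 into the complex that directs the lipid step. In flies, loss of Atg7 or of Atg8a is known to shorten life and to leave aggregates in neurons, and raised neuronal Atg8a is known to lengthen life.

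Neuron markers were present in every library, and some of them and some fat body and haemocyte markers differed between the foods. All 9 neuron markers were tested, elav between 73.6 and 85.5 FPKM, 2 of them fell (Syn and Gad1), and their summed level was 2224 to 2303 FPKM on normal food and 2086 to 2113 on spermidine food, without overlap. The summed level of 8 genes listed as fat body markers, led by the yolk protein genes, was 1920 to 2512 FPKM on normal food and 9687 to 10690 on spermidine food. Of the 7 tested 5 rose (fit, Yp1, Yp2, Yp3 and Cyp4g1), though Cyp4g1 is better known from oenocytes than from fat body. The summed level of 9 photoreceptor markers varied within normal food, from 970 FPKM in replicate 1 to 6572, against 5832 to 8402 on spermidine food, which overlap. Haemocyte markers summed to 28.8 to 42.55 FPKM on normal food and to 52.9 to 53.55 with spermidine (5 of 6 tested, 2 rose), glia markers to 1589 to 1801 and 1788 to 1882 (7 tested), and muscle markers to 8.73 to 29.2 and 7.51 to 23.3 (4 of 7 tested), and no photoreceptor, glia or muscle marker passed the test. In bulk tissue, fewer cells of a type and less RNA per cell cannot be told apart.

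Among the ubiquitin-like proteins, Atg8a was by far the most abundant transcript of the system. Atg8a, the main fly form of Atg8, had 329, 291 and 307 FPKM in normal food replicates 1, 2 and 3, and 290, 281 and 277 FPKM in spermidine food replicates 1, 2 and 3. All spermidine food libraries were below all normal food libraries, but the lowest normal food library and the highest spermidine food library nearly touched. It was the single member of the 9 tested whose groups did not overlap, where 28.0% of all genes tested did not overlap in either direction and 10.8% were lower throughout on spermidine food and 17.2% higher. Its mean was 309 ± 18.7 FPKM on normal food and 283 ± 6.75 FPKM with spermidine (SD, n = 3 each). That difference, -0.13 ± 0.05 (SE) as a log2 fold change, did not pass the test (limma, adjusted p = 0.259). Of the 9 neuron markers, 7 also had a lower mean on spermidine food, and the median log2 fold change of all 9 was -0.165. The general neuron markers elav and nSyb did not have a lower mean (log2 fold changes of 0.05 and 0.002). The part of the neuron markers in the level of Atg8a was not tested.

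Atg8b, the second fly copy of Atg8 and known chiefly from the male germ line, was close to absent. It was listed at 0 in normal food replicates 1 and 3 and in spermidine food replicates 1 and 3, at 0.048 FPKM in normal food replicate 2 and at 0.186 FPKM in spermidine food replicate 2. Its mean normalized counts in the authors' deposited table are 0.65 on normal food, against 1.29 with spermidine, and no change can be read from so few reads. It did not pass the filter on low values, which asked for 0.5 FPKM or more in 3 or more libraries, and was not tested. Of 10 testis markers, 3 passed that filter (can, mia and Mst87F), and the sperm chromatin genes ProtA and ProtB lay between 0 and 0.114 FPKM.

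Atg12 had 60.4, 58.2 and 63.4 FPKM in normal food replicates 1, 2 and 3, and 67.5, 58.8 and 61.9 FPKM in the spermidine food replicates. The foods overlapped, with the highest value in spermidine food replicate 1 and the lowest in normal food replicate 2. Its log2 fold change was 0.05 ± 0.06 (SE; limma, adjusted p = 0.709).

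**Figure D1:**
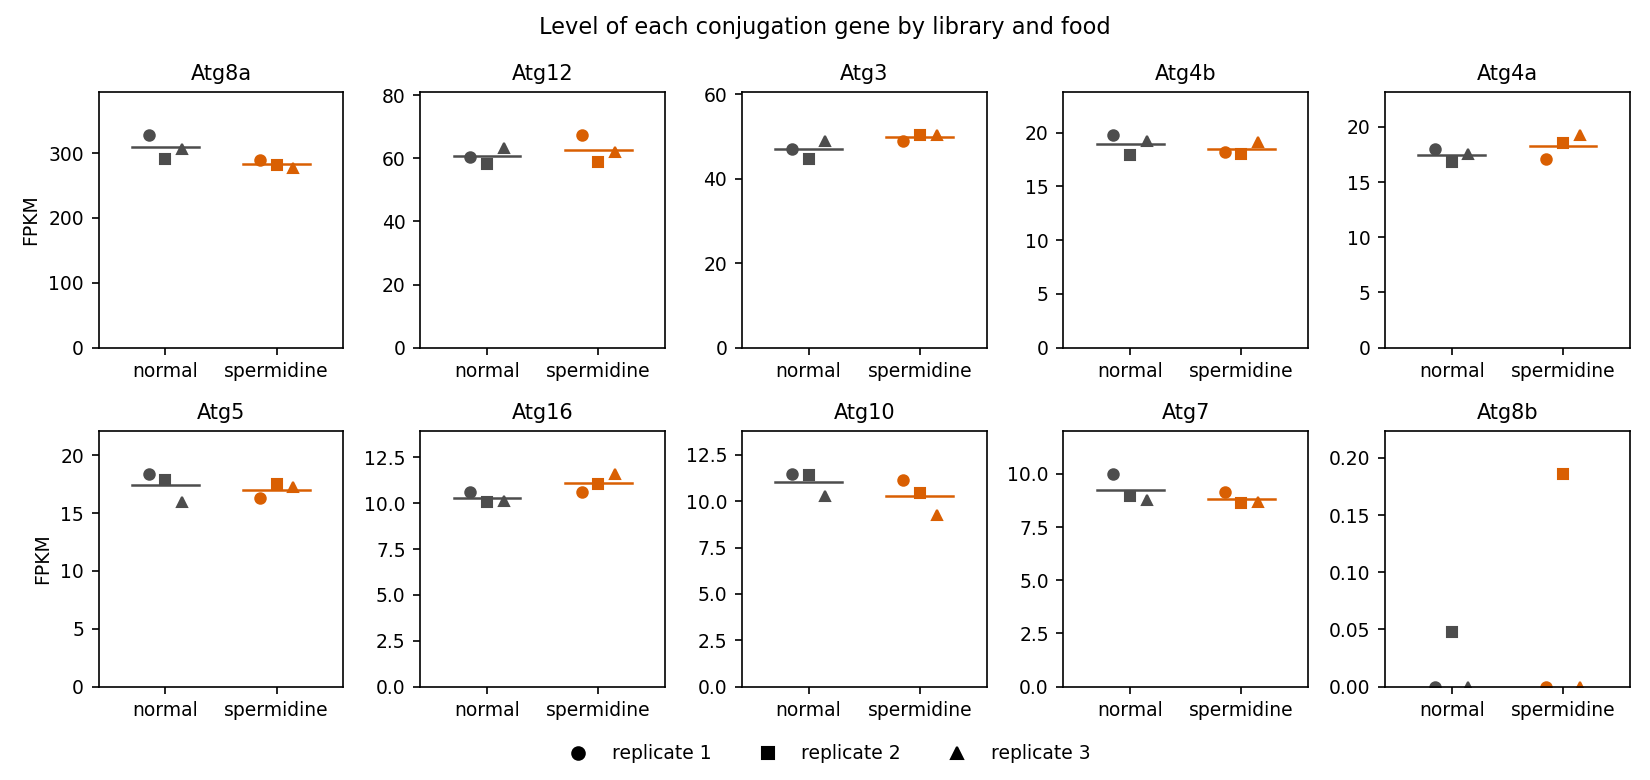
FPKM of each of the 10 conjugation genes in each library, by food, with a marker per replicate, a line at the group mean (none for Atg8b, listed at 0 in 4 libraries) and a linear axis from 0. Atg8a lies between 291 and 329 FPKM on normal food, and between 277 and 290 FPKM with spermidine, without overlap, and the other genes overlap between the foods.

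None of the activating and carrier enzymes separated the foods. Atg7, the E1-like enzyme shared by both branches, had 10.01, 8.97 and 8.75 FPKM in normal food replicates 1, 2 and 3 and 9.13, 8.64 and 8.69 FPKM in the spermidine food replicates. Normal food replicate 1 was highest, and the other libraries were mixed. Its log2 fold change was -0.06 ± 0.06 (SE; limma, adjusted p = 0.641). Atg3, the carrier for Atg8, had 47.1, 44.7 and 49.1 FPKM on normal food, against 48.9, 50.3 and 50.5 FPKM with spermidine. The foods overlapped only because normal food replicate 3 exceeded spermidine food replicate 1. Its log2 fold change was 0.09 ± 0.04 (SE; limma, adjusted p = 0.312). Atg10, the carrier for Atg12, had 11.5, 11.4 and 10.3 FPKM on normal food, against 11.1, 10.4 and 9.28 FPKM with spermidine. These values overlapped, and Atg10 was the member that varied most within a food, with an SD of 0.10 on the log2(FPKM + 1) scale.

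For Atg10 the direction depended on the quantity read. Its FPKM gave a log2 fold change of -0.10 ± 0.08 (SE; limma, adjusted p = 0.529), whereas the authors' deposited table has mean normalized counts of 578 on normal food, against 587 with spermidine and a fold change of 1.02. In the annotation, 46.6% of the exonic bases of Atg10 are also exonic in Dgk, a diacylglycerol kinase gene on the opposite strand, and 53 bases are shared with CG12822 on the same strand. Dgk had 49.4 ± 2.13 FPKM on normal food, against 46.9 ± 1.55 with spermidine (SD, n = 3 each). The library kit keeps strand, but no source used here says whether the counting used it, so reads of Atg10 and Dgk in the shared stretch may not be told apart.

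The partners in the lipid-joining complex, Atg5 and Atg16, were not equally abundant. Atg5, to which Atg12 is joined, had 18.4, 17.8 and 15.9 FPKM in normal food replicates 1, 2 and 3 and 16.3, 17.5 and 17.3 FPKM in the spermidine food replicates. Both extremes were on normal food. Its log2 fold change was -0.03 ± 0.06 (SE; limma, adjusted p = 0.843). Atg16, the scaffold of the complex, had 10.62, 10.1 and 10.1 FPKM on normal food, against 10.61, 11.1 and 11.6 FPKM with spermidine, and the foods overlapped by a hair between the replicates numbered 1. Its log2 fold change of 0.10 ± 0.05 (SE) was the highest among the members and did not pass the test (limma, adjusted p = 0.325).

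The paired proteases Atg4a and Atg4b, which trim Atg8 and also release it from the lipid, had close levels in FPKM, though not in the authors' mean normalized counts per exonic kilobase (405 for Atg4a and 930 for Atg4b on normal food). Atg4a had 18.0, 16.8 and 17.5 FPKM on normal food, against 17.1, 18.6 and 19.3 FPKM with spermidine in replicates 1, 2 and 3. Atg4b had 19.8, 18.0 and 19.2 FPKM on normal food, against 18.2, 18.0 and 19.1 FPKM with spermidine. Neither separated the foods, with log2 fold changes of 0.06 ± 0.06 for Atg4a and -0.04 ± 0.05 for Atg4b (SE; limma, adjusted p = 0.575 and 0.714). In the annotation, 51.4% of the exonic bases of Atg4a are exonic in CG4629 on the opposite strand, which had 58.0 FPKM on normal food, against 58.4 with spermidine, so the level of Atg4a may hold reads of that gene. For Atg4b, 7.77% is shared with Tmtc4, also on the opposite strand.

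Over the 6 libraries the levels of the members formed separate steps. Atg8a led with a mean of 296 FPKM, 4.79 times that of Atg12, and made up 61.0% to 62.6% of the summed FPKM of the members on normal food and 58.3% to 59.3% on spermidine food. Without Atg8a the members summed to between 186 and 196 FPKM on normal food and between 194 and 199 on spermidine food, which overlap. Atg12 (mean 61.7 FPKM) was separated from Atg3 (48.4 FPKM) in that no library of one reached the other. Atg4b, Atg4a and Atg5, with means of 18.7, 17.9 and 17.2 FPKM, overlapped. Below them came Atg16, Atg10 and Atg7, with 10.7, 10.7 and 9.03 FPKM, where Atg10 overlapped both others, and every library of Atg7 (up to 10.01 FPKM) was below every library of Atg16 (from 10.07 FPKM). Both enzymes that handle Atg12, Atg7 and Atg10, thus had lower FPKM than Atg12 in every library.

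The places of several members in that order, Atg12 and Atg4a among them, changed with the measure, FPKM or counts per exonic kilobase. Divided by the exonic length of the annotation (469 bases for Atg12 and 1221 for Atg3), the authors' mean normalized counts on normal food gave 1589 per kilobase for Atg12 and 2076 for Atg3, the opposite order from FPKM. Atg4a, with 4078 exonic bases, went from place 5 to place 8. Atg7 went from place 9 to place 7, and Atg10 from place 8 to place 9. Atg8a stayed first, with 9739 per kilobase. Whether the length used, the counting or reads of overlapping genes made these differences was not tested. The counts behind these levels ranged, among the 9 members tested, from a mean of 578 for Atg10 to 16507 for Atg8a on normal food.

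**Figure D2:**
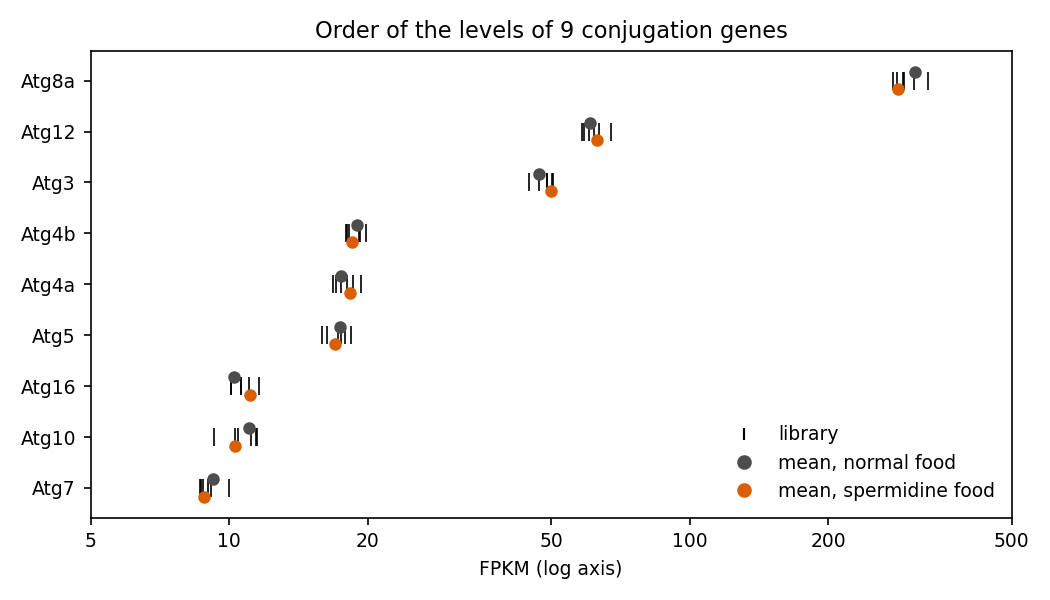
FPKM on a log axis of the 9 conjugation genes other than Atg8b, ordered by mean, with a tick for each of 6 libraries and a dot for the mean of each food. Atg8a stands at 277 to 329 FPKM, Atg12 and Atg3 between 44.7 and 67.5, and the other 6 genes between 8.64 and 19.8.

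Spermidine food against normal food asks whether supplementation altered the transcript levels of this machinery. None of the 9 members tested passed the test (limma on log2(FPKM + 1), adjusted over all 10366 genes tested, adjusted p from 0.259 to 0.843), where 4.74% of all genes tested passed, 3.21% higher and 1.52% lower on spermidine food. Of the calls, 67.8% were thus higher, against 56.0% with upper-quartile scaling. None of the 9 members had an unadjusted limma p under 0.05, which 21.1% of all genes had. That count was 1 with median-ratio scaling, with upper-quartile scaling, and without normal food replicate 2 or 3. It was 0 under the other limma alternatives. The adjusted limma p of Atg8a was 0.14 with median-ratio scaling and 0.101 with upper-quartile scaling. By mean, 4 were higher on spermidine food and 5 lower, with a median log2 fold change of -0.03 beside 0.02 for all genes tested. The members' changes ran from -0.13 to 0.10 on the log2 scale. The 95% intervals, which are not adjusted for the number of genes, all included 0 and together ran from -0.29 for Atg10 to 0.23 for Atg16, that is from 0.820-fold to 1.17-fold on the log2(FPKM + 1) scale. Within a food, the SD of the members on that scale was 0.05 to 0.10, with a median of 0.07 beside 0.08 for all genes tested.

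The authors' own comparison, listed beside mean normalized counts, differed for Atg8a. In the authors' deposited table Atg8a has a fold change of -1.1, where the sign marks a lower value on spermidine food, and an unadjusted p of 0.00275, which became 0.0202 when adjusted over the same 10366 genes. By that measure 16.9% of all genes tested passed, 8.70% lower and 8.20% higher on spermidine food, and the call of Atg8a is 1 of 9 members, a share near that background. Of the 9 neuron markers, 8 passed as lower on spermidine food by that measure and 0 as higher. Atg16 has a fold change of 1.08 in the authors' deposited table, with an unadjusted p of 0.0492 and 0.194 when adjusted. The other 7 members had unadjusted p-values of 0.119 or above there.

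**Figure D3:**
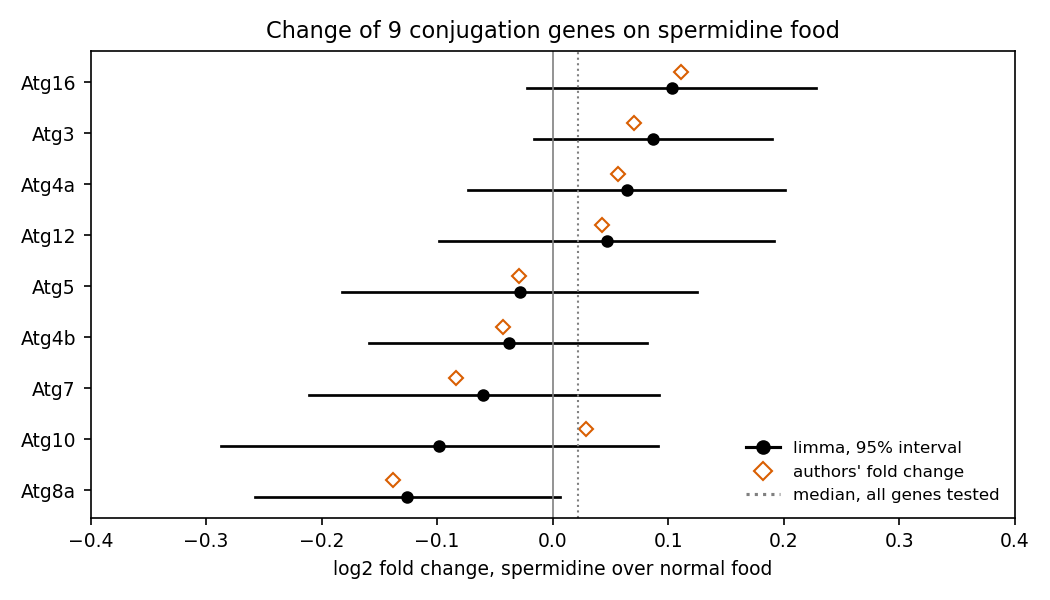
Log2 fold change of the 9 conjugation genes tested, spermidine over normal food, as limma estimates with 95% intervals and, as open diamonds, as the log2 of the authors' deposited fold change; the dotted line is the median of all genes tested. Every interval includes 0, and the estimates differ in sign for Atg10 alone.

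Ratios within a library do not depend on how the libraries are scaled, and 6 ratios between partners were compared, chosen with the values known. Atg8a over its carrier Atg3 was 6.98, 6.52 and 6.26 on normal food, against 5.93, 5.59 and 5.49 with spermidine. Every spermidine food library was lower (exact two-sided permutation test, p = 0.1, the smallest that 3 against 3 libraries can give, and 0.3 after adjustment over the 6 ratios). Atg4a over Atg4b was 0.909, 0.938 and 0.913 on normal food, against 0.935, 1.03 and 1.01 with spermidine, which overlap. The ratios of Atg12 to Atg10, Atg12 to Atg5, Atg5 to Atg16 and Atg3 to Atg7 overlapped as well (exact permutation p from 0.2 to 0.5).

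Single libraries held the highest values of several members. Normal food replicate 1 held the highest value of 5 of the 9 members (Atg4b, Atg5, Atg7, Atg8a and Atg10), where it held the highest value of 24.4% of all genes tested. That library also had the lowest level of the photoreceptor opsin gene ninaE (776 FPKM, against 3385 to 6715 in the others). The 4 muscle markers tested were mixed. It held the highest level of up (14.3 FPKM, against 2.33 to 7.35) and of Mhc (5.6 FPKM). Mlp60A was highest in spermidine food replicate 2 (10.5 FPKM) and fln in spermidine food replicate 1 (1.06 FPKM). The part of these markers in the members' values was not tested. Spermidine food replicate 3 held the highest value of Atg3, Atg4a and Atg16, and 21.4% of all genes. Without normal food replicate 1 the log2 fold change of Atg8a was -0.08, and that of Atg5 was 0.01, opposite in sign, while Atg7 and Atg4b were at -0.007 and -0.009. By the smallest distance between library profiles, taken as the root mean square difference of centred log2(FPKM + 1) values over the 6 libraries among 416 genes of similar level, the genes most like Atg8a were CG31221 (0.02), lncRNA:mimi (0.03) and eIF3m, a translation initiation subunit gene (0.03), where the median distance was 0.11.

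The genes lie apart in the genome. By the coordinates of the table, which the annotation of assembly BDGP6 repeats exactly for all 10, Atg8a (FBgn0052672) lies on X from 10764878 to 10768338 and Atg5 (FBgn0029943) on X from 7314622 to 7323770. Atg12 (FBgn0036255) lies on 3L from 12136967 to 12137559, and Atg3 (FBgn0036813) on 3L from 18748687 to 18750483. On 3R are Atg4b (FBgn0038325, 15353720 to 15356924), Atg8b (FBgn0038539, 17724410 to 17725063) and Atg16 (FBgn0039705, 29827281 to 29835101). On 2R are Atg10 (FBgn0040780, 7832171 to 7835518) and Atg7 (FBgn0034366, 18620466 to 18625044), and on 2L is Atg4a (FBgn0031298, 1080911 to 1085380). Atg8b has a single exon, whereas Atg16 has 11. Atg8a has 3 annotated transcripts and Atg16 has 4, and the table gives 1 value per gene, so isoforms were not analysed here. Atg12 shares 64 exonic bases, 13.6% of its own, with ND-SGDH, a respiratory complex I gene on the opposite strand. ND-SGDH had 219 FPKM on normal food, against 243 with spermidine, so the level of Atg12 may hold reads of that gene.

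In the gene ontology terms deposited with the table, 7 of the 10 members, counted with the untested Atg8b, carry macroautophagy. Among the genes tested, 11 carry it. Atg3, Atg5, Atg12 and Atg16 carry Atg8 ligase activity, and no other gene tested does. Atg7 and Atg8a are the 2 members listed under determination of adult lifespan, a term that 117 genes tested carry.

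No gene of the rest of the core autophagy pathway passed the test either. Of 17 such genes (the initiation kinase complex, the lipid kinase complex and its partners, membrane supply, Epg5 and the transcription factor Mitf), all were tested, 8 had a higher mean and 9 a lower one, with a median log2 fold change of -0.01 beside 0.02 for all genes. The smallest p belonged to Atg101, a subunit of the initiation kinase complex, with 47.4, 46.5 and 49.7 FPKM on normal food, against 44.2, 41.0 and 42.3 FPKM with spermidine (limma, adjusted p = 0.0904). Next were Vmp1 (Tango5 in the table), which acts in autophagosome formation, and Mitf, which drives lysosome genes (limma, adjusted p = 0.174 and 0.2). Vmp1 is the neighbour of Atg8a on X, 464 bases away on the same strand. It had 49.2, 48.7 and 49.7 FPKM on normal food, against 52.3, 51.5 and 54.7 FPKM with spermidine, so its groups were apart in the opposite direction from those of Atg8a. By the p-values of the authors' deposited table, Mitf (fold change -1.2) and Atg101 (-1.15) are lower past the threshold once adjusted.

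Among 13 genes that act after conjugation, in cargo binding and in fusion with the lysosome, 2 fell, none rose and 11 did not pass the test, where 1.52% of all genes tested fell. Both that fell encode subunits of the HOPS tethering complex, which joins autophagosomes to lysosomes. Vps11 (3L, 23147656 to 23150499) had 11.6, 8.63 and 7.32 FPKM on normal food, against 4.58, 4.92 and 4.34 FPKM with spermidine, a log2 fold change of -0.84 ± 0.15 (SE; limma, adjusted p = 0.0349). The groups were far apart, although normal food replicate 1 stood well above the other normal food libraries. The gene lt (2L, 22924795 to 22943135), the fly Vps41, long known as a gene of the centric heterochromatin, had 49.2, 47.7 and 46.5 FPKM on normal food, against 40.1, 41.5 and 38.1 FPKM with spermidine (limma, adjusted p = 0.0311). The call of lt ended without any 1 of the 6 libraries (adjusted p from 0.0505 to 0.108), and that of Vps11 ended without normal food replicate 2 (0.0873) or spermidine food replicate 1, 2 or 3 (0.106, 0.0779 and 0.141). With no filter on low values both calls ended (limma, adjusted p = 0.0518 for lt and 0.0685 for Vps11), as they did with the replicate number as a block (0.0645 and 0.0671), and that of lt ended without the intensity trend (0.0512). The log2 fold changes kept their direction throughout, from -0.30 to -0.22 for lt and from -0.97 to -0.67 for Vps11 over all alternatives.

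No other HOPS gene of the list passed the test. The gene car, the fly Vps33, had a log2 fold change of -0.14 ± 0.05 (SE; limma, adjusted p = 0.222), and dor, Vps16A and Vps39 had 0.06, 0.02 and 0.06. The cargo receptor gene ref(2)P, whose protein binds Atg8a and is itself degraded by autophagy, had 149, 135 and 145 FPKM on normal food, against 152, 145 and 151 FPKM with spermidine, and the foods overlapped (limma, adjusted p = 0.529).

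Enzymes of related ubiquitin-like systems gave a comparison outside autophagy. Of 15 such genes (for ubiquitin, Sumo, Nedd8, Ufm1 and Urm1) none passed the test, and 14 had a higher mean on spermidine food, where 57.6% of all genes tested did. Their median log2 fold change was 0.06 beside -0.03 for the Atg genes of conjugation and 0.02 for all genes, a difference between lists that was not tested. The smallest p-values were those of Nedd8, a ubiquitin-like modifier of cullins, Ufm1, another such modifier, and Ufc1, its carrier (limma, adjusted p = 0.0844, 0.131 and 0.219). Nedd8 had 52.1, 51.1 and 55.4 FPKM on normal food, against 65.0, 58.9 and 59.7 FPKM with spermidine, without overlap.

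**Figure D4:**
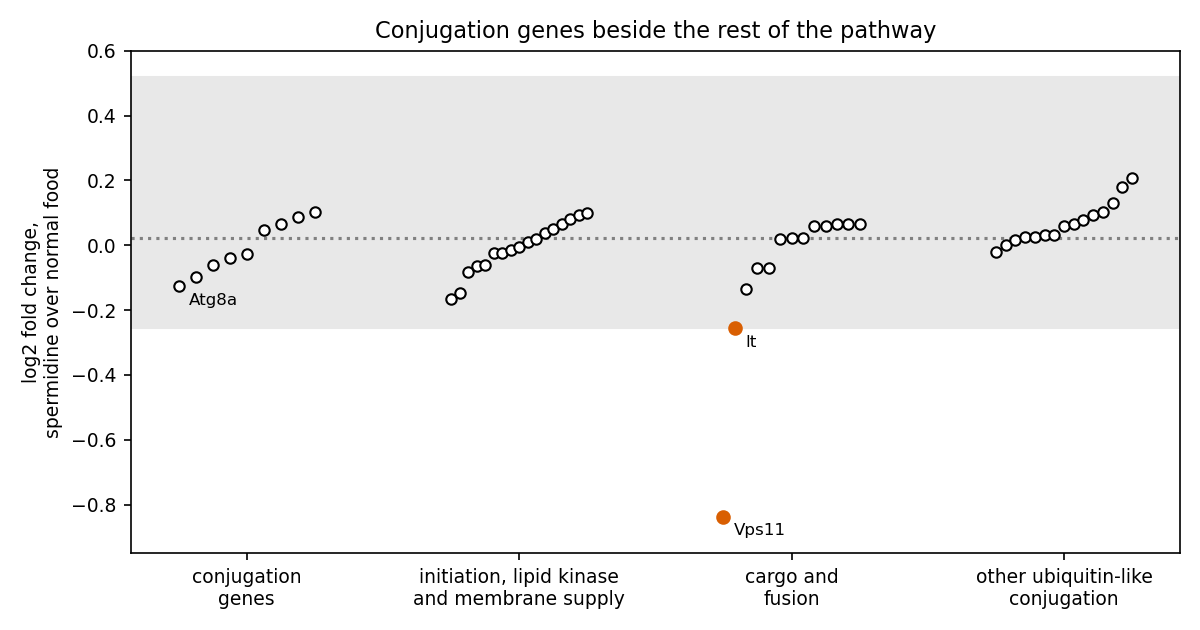
Log2 fold change, spermidine over normal food, of each tested gene of the conjugation system, the rest of the autophagy pathway and related conjugation systems; filled points passed an adjusted p of 0.05, the dotted line is the median of all genes tested and the grey band spans their 5th to 95th percentiles. The 9 conjugation genes lie between -0.13 and 0.10, and the calls are Vps11 at -0.84 and lt at -0.26.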

How the data were processed

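RNA was extracted with Trizol and 100 ng per library was sequenced with a stranded mRNA kit, per the labels' protocols. The authors deposited FPKM per gene and library, mean normalized counts per group (a signal, pooled over the libraries), fold changes with a sign for direction (treated as a score, since -1 to 1 is left empty), and unadjusted p-values. The submitters' processing notes name HTSeq, Cufflinks and DESeq, with no role or version for any, and per the file headers the genes are those of Ensembl build 82. No aligner is named in the sources used here. Of 11 sheets, the full one was used, since the other 10 are subsets of it or empty. The depth per library is unknown, and the mean normalized counts of a group total 48052547 (normal food) or 47904049 (spermidine food). Symbols and exons came from Ensembl release 115, where 99.6% of 17180 shared genes had the same position to within 2000 bases.

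The 215 genes whose status was not OK in every library were left out; all 10 members were OK. Genes that reached 0.5 FPKM in 3 or more libraries (10366, 9 of them members) were tested with limma 3.58.1 in R 4.3.3, with an intensity trend on log2(FPKM + 1), two-sided, without covariates, with Benjamini-Hochberg adjustment and a threshold of 0.05. This scale understates changes of low genes. Ratios were tested with scipy 1.17.1. On simulated data, with 50 genes changed at each fold, the model recovered 66% of 1.25-fold changes and 92% of 1.5-fold changes. It also called 12 unchanged genes. Changes smaller than 1.25-fold were not simulated. The labels number the replicates but do not say that each came from its own culture of flies, so the p-values measure spread among libraries that may be technical.

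The members, lists and tests were chosen with earlier results of these data known. The text names all members and, of each other pathway list, every gene that passed and otherwise the 3 with the smallest p, while marker lists are given by their sums. Exceptions chosen after their values were seen are ref(2)P, dor, Vps16A, Vps39, the single markers named and the genes that overlap a member. Alternatives covered pseudocount, filter, scaling, replicate number, trend, the authors' p-values and leaving out single libraries.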

Additional observations from a re-analysis of the deposited data

How the results depend on the processing

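Of 126 values of the 9 members under 14 alternatives each, 121 kept their direction and stayed above an adjusted p of 0.05, and 1, Atg8a in the authors' p-values (-0.14 on the log2 scale, adjusted p = 0.0202), passed it. Over its alternatives Atg8a ran from -0.17 to -0.08 (adjusted p from 0.0202 to 0.464). The other 4 changed sign: leaving out 1 library gave -0.087 to 0.012 for Atg5 and -0.006 to 0.092 for Atg12. Atg5 was at 0.012 without normal food replicate 1 and 0.001 without spermidine food replicate 1, Atg12 at -0.006 without the latter, and Atg10 at 0.029 in the authors' values, where the members' median was 0.029 in place of -0.03. Without spermidine food replicate 3, Atg10 was at -0.033 in place of -0.10 and Atg4a at 0.026 in place of 0.06. The number of members called was 1 in the authors' values and 0 under each other alternative.

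Of all genes, 491 passed, 261 did with no filter, 1752 in the authors' p-values (48.5% higher against 67.8%) and 587 under upper-quartile scaling (56.0% higher), while leaving out 1 library gave 55 to 322, the lowest without spermidine food replicate 3. Of the other autophagy genes, 1 passed under upper-quartile scaling (Atg101) and 2 in the authors' values. Of the cargo and fusion genes, 0 passed with no filter, 1 without the intensity trend (Vps11) and 3 in the authors' values (lt, Vps11 and car), and leaving out 1 library gave 0 to 1. The cause of these differences was not tested.

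With the replicate number as a block, 257 genes passed, and of the cargo and fusion genes 0 did. Same-numbered libraries did not deviate together (correlations of -0.051, -0.103 and 0.018). Only spermidine food replicate 3 correlated best with the library of its own number on the other food. With 3 libraries per food, these correlations cannot decide whether the numbers mark a shared batch.

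The filter on low values left Atg8b without a test, and without read counts per library no counting interval can be given.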
